A study of Rattus norvegicus with 40 samples.

Results

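Adult neurogenesis and proliferation genes were followed in hippocampal slices of 12 male Long-Evans rats. The list held 10 genes named by symbol: *Dcx*, *Sox11*, *Sox4*, *Igfbpl1*, *Eomes* and *Neurod1* of the neurogenic lineage, and *Mki67*, *Top2a*, *Cdk1* and *Ccnb1* of the cell cycle. A probe could be assigned to 8 of the 10 through the RefSeq identifiers of the array, out of 16581 genes with a symbol. *Eomes* and *Top2a* were matched to no probe and were not analysed here. Each gene was read from its brightest probe, and all 8 of these probes passed the filter used for testing.

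The rats were 4 young animals (5 to 6 months), 4 aged unimpaired (AU) animals and 4 aged impaired (AI) animals. AU and AI were separated by a water maze learning score, AU rats performing like young ones and AI rats worse. The age of the aged rats is 25 to 26 months in the sample labels and 24 to 25 months in the treatment protocol. Both hippocampi of a rat were cut into slabs of 1 mm, which were divided between a sham dish, a dish given 1 Hz repetitive magnetic stimulation and a dish given intermittent theta burst stimulation (iTBS), so all 3 treatments were measured in every rat. The sham slices lay 20 cm from the coil, and RNA was collected 1 h after treatment by the sample labels and 2 h after it by the protocol. Each of the 9 groups therefore had 4 arrays, 1 per rat. A slice preparation holds the cells of the hippocampus without their blood supply, and each dish pooled several slices.

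New granule neurons are made throughout life in the dentate gyrus of rodents. Radial glia-like stem cells give rise to dividing intermediate progenitors, which become neuroblasts that migrate a short way, extend processes and mature into granule neurons. *Dcx* encodes doublecortin, a microtubule-binding protein that marks neuroblasts and immature neurons, and it is the usual tissue marker of adult neurogenesis. The production of new neurons is known to be low in old rodents. Transcripts of the cell cycle are not specific to this lineage, since dividing oligodendrocyte progenitors, microglia and endothelial cells carry them too. In whole slices, fewer cells of a type and less RNA per cell cannot be told apart.

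The cell cycle members are shown with the sequence before their gene start, since genes of the late cell cycle are known for sharing promoter elements. The lines below give the 250 bases before the annotated start in the GRCr8 RefSeq assembly, 5′ to 3′ in the direction of the gene. Capitals mark the CCAAT box (CCAAT or its reverse complement ATTGG) and the cell cycle homology region (CHR, searched as TTTGAA or its reverse complement TTCAAA), both strands being searched.
*Cdk1*, chr20:19265043-19265292, plus strand: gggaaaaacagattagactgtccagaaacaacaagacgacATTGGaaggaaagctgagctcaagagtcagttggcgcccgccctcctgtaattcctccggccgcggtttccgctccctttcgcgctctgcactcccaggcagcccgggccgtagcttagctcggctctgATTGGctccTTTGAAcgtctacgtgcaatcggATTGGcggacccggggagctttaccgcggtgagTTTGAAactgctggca
*Ccnb1*, chr2:33655226-33655475, minus strand: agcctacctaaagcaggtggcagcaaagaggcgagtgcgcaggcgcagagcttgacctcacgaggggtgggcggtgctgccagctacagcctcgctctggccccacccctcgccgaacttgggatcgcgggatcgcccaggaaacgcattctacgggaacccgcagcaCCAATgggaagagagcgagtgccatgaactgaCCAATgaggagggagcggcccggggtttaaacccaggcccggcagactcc
*Mki67*, chr1:199952594-199952843, minus strand: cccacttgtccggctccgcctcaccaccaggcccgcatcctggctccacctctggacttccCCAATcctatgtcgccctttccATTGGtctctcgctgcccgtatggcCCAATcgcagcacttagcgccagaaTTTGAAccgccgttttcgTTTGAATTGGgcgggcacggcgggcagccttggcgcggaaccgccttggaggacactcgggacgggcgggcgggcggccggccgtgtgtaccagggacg
The CCAAT letters occurred 3 times before *Cdk1*, 2 times before *Ccnb1* and 4 times before *Mki67*. The CHR letters occurred 2 times before *Cdk1* and 2 times before *Mki67*, where 1 of them shares a base with an ATTGG. No such letters stood in the window of *Ccnb1*. Over 33469 promoters of the same length, 34% held the CCAAT letters and 16.2% the CHR letters. Of the other measured members, *Sox11* held 1 of each, *Igfbpl1* held 1 CHR match, *Dcx* and *Neurod1* held neither, and *Sox4* had no entry in the table. These matches are a description of letters, not of binding sites.

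Levels are z-scores of the log2 intensity over all features of an array, brought back to the log2 scale by a factor of 4.16, the average SD of the 36 arrays. A level of 0 is the mean of an array, and a difference is close to a log2 fold change. Levels of different genes come from different probes and were not set against each other. The share of features well above background, which stands in for depth, ran from 67.4% to 90.5% over the 36 arrays. It was 72.5% to 90.5% in rats numbered 1 and 2, and 67.4% to 77.3% in rats numbered 3 and 4. Of 6 listed granule neuron markers 4 passed the filter, and their mean level lay between 3.47 and 4.63 on every array. *Dsp* was matched to no probe, and *Tdo2* was well above background on 13 of 36 arrays. The mean level of 8 pyramidal neuron markers lay between 2.76 and 3.81. These levels were above the array mean and are not a test of the hippocampal label.

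Transcripts of the lineage were detected at every age. *Sox11*, *Sox4*, *Igfbpl1*, *Neurod1*, *Mki67* and *Cdk1* lay well above background on 36 of 36 arrays. *Dcx* did so on 35 of 36, missing the iTBS array of AU rat 3. *Ccnb1*, whose median signal was 23.6, did so on 31 of 36. Its 5 arrays without a clear signal all came from aged rats: the 1 Hz and iTBS arrays of AU rat 3, the sham array of AU rat 4, and the sham and iTBS arrays of AI rat 4. All 12 young arrays detected *Ccnb1*. The 5 arrays were all of rats numbered 3 or 4. The share of features well above background was 67.4% to 77.3% in rats 3 and 4 and 72.5% to 90.5% in rats 1 and 2. Its part in this count was not tested, and the share of all probes lost on aged arrays alone is not given here.

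The first comparison asked whether these genes differ between young and aged hippocampus, and between AU and AI animals. All 8 members had a lower mean in the 8 aged rats than in the 4 young rats, but no difference passed the test. *Dcx* and *Cdk1* had the lowest differences, -0.76 and -0.50 on the log2 scale. *Igfbpl1* followed at -0.34 and *Ccnb1* at -0.21, while *Neurod1* at -0.04 and *Mki67* at -0.01 were close to their young level. By limma on the 12 rat means, 0 of 8 members were called at an adjusted p of 0.05, where 0% of 32562 probes were called, and 0 of 8 had an unadjusted p below 0.05, where 1.5% of probes did. The exact permutation test over rats gave no member a p below 0.05 either. A difference below 0 was seen for 58.3% of all probes. Leaving out 1 rat at a time, 6 to 8 of the 8 members stayed below 0.

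**Figure D1:**
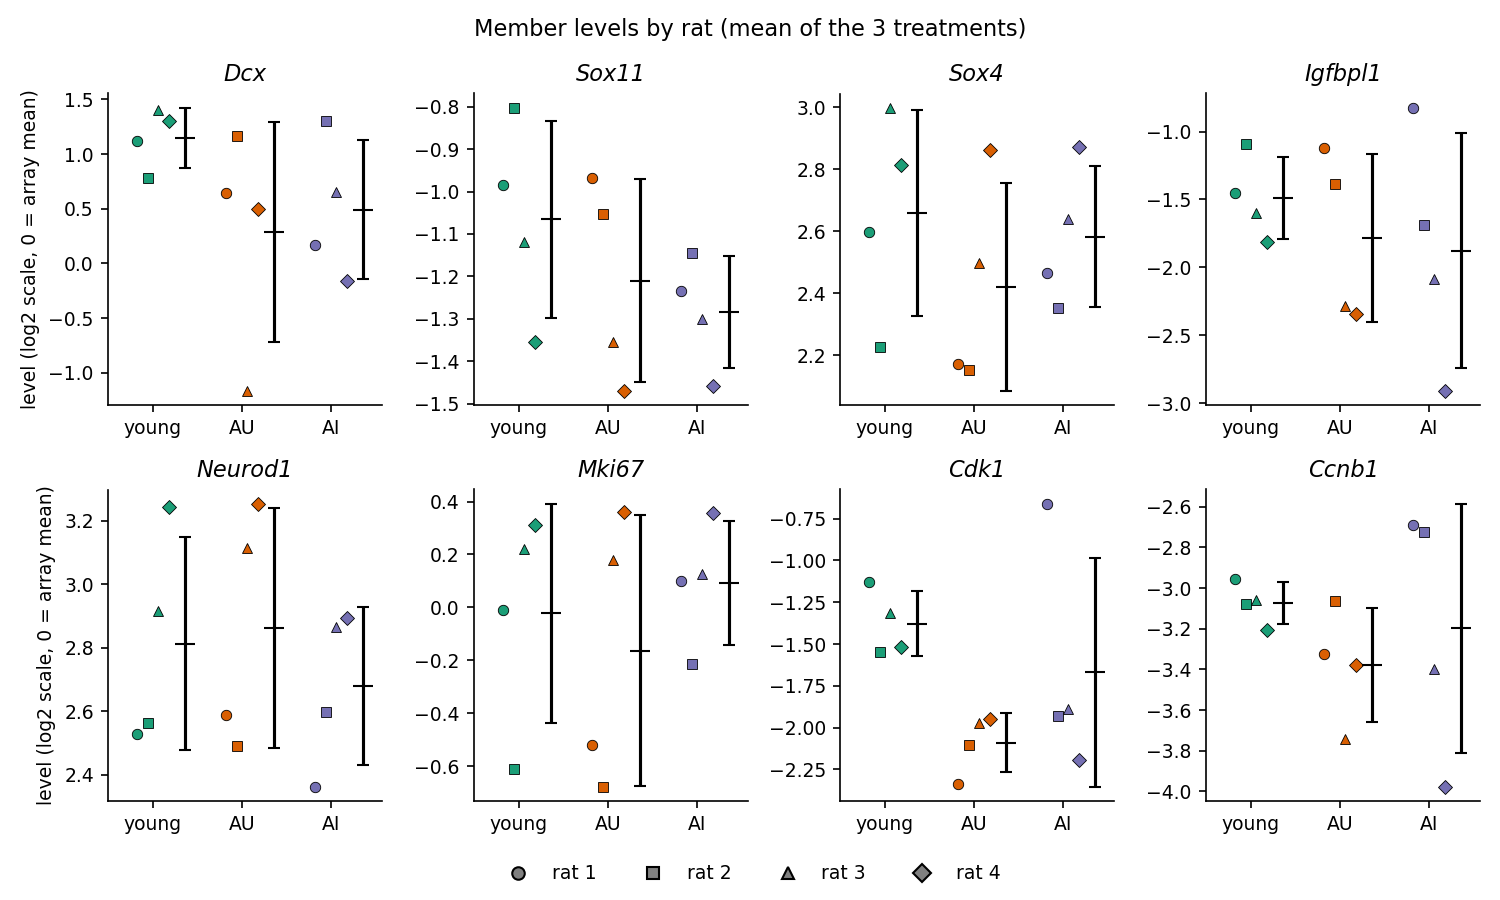
Level of each of the 8 measured members (log2 scale, 0 is the array mean, own axis range per gene) in each rat, averaged over its 3 treatments, by age group, with the mean and SD of the 4 rats as a black bar to the right of each group. All 4 AU rats lie below the 4 young rats for Cdk1, a separation not set against that of all probes, and AU rat 3 stands apart for Dcx at -1.16.

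*Dcx*, the neuroblast marker, had levels of 1.12, 0.78, 1.40 and 1.30 in young rats 1 to 4. In AU rats the levels were 0.64, 1.16, -1.16 and 0.50, and in AI rats 0.17, 1.30, 0.65 and -0.16. The young rats were tightly grouped, 6 of the 8 aged rats lay below the lowest of them, and 1 aged rat of each kind lay within their range. The group means were 1.15 ± 0.27 in young, 0.28 ± 1.00 in AU and 0.49 ± 0.63 in AI (SD, n = 4 rats each). The difference between aged and young was -0.76 (95% confidence interval -1.59 to 0.06, limma adjusted p = 1, exact permutation p = 0.0808, two-sided). Without the iTBS array of AU rat 3, described below, the difference was -0.51, with the same exact permutation p of 0.0808 and 5 of 8 aged rats below the lowest young rat. On sham arrays alone it was -0.44 (exact permutation p = 0.287).

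*Cdk1*, the kinase that drives entry into mitosis, had levels of -1.13, -1.55, -1.31 and -1.52 in the young rats. The AU rats lay at -2.34, -2.10, -1.97 and -1.95, each below every young rat. No other member set these groups fully apart, and the share of all probes that did so is not given here. The AI rats were split, with rat 1 at -0.66, above every young rat, and the others at -1.93, -1.89 and -2.19, below every young rat. The difference between AU and young was -0.71 (95% confidence interval -1.32 to -0.11, limma adjusted p = 1), and -0.36 with normexp background correction and quantile normalization. The exact permutation test gave p = 0.0286, two-sided, the smallest that 4 against 4 rats can give and not corrected for the 32 tests of 8 members in 4 age comparisons. By limma 1 of 8 members had an unadjusted p below 0.05 in this comparison, where 0.703% of probes did, and 0 of 8 passed after adjustment, where 0% of probes were called. In all, 7 of 8 members were lower in AU than in young rats, as were 56.1% of probes.

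The high level of AI rat 1 was seen on its 3 arrays, at -0.20 in sham, -0.77 in 1 Hz and -1.01 in iTBS, and on a repeat hybridization of its iTBS sample at -0.85. With all rats the difference between aged and young was -0.50 (95% confidence interval -1.02 to 0.02, limma adjusted p = 1, exact permutation p = 0.101). Without this rat it was -0.68, and all 7 remaining aged rats lay below every young rat. The rat was left out for this same level, so no test is given for the 7. The share of all probes that set these 7 rats apart from the young ones is not given here. Rat 1 was also the rat with the highest mean level of 7 inflammatory myeloid markers such as *S100a9* and *Il1b*, 2.77 against -0.43 to 2.14 in the other 11 rats. Its 8 microglial markers had a mean level of 5.25, against 3.73 to 4.62 in the others. Of the 8 inflammatory myeloid markers, 7 were tested, and *Ccr2* was not well above background in all 4 arrays of any group. Their summed mean ran from -0.71 to 2.29 on young arrays, from -0.20 to 0.79 on AU arrays and from -0.23 to 3.19 on AI arrays. Their part in the level of *Cdk1* was not tested.

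*Ccnb1*, the cyclin partner of *Cdk1*, was even in the young rats, at -2.96, -3.08, -3.06 and -3.21. In AU rats it lay at -3.32, -3.07, -3.74 and -3.38, and in AI rats at -2.69, -2.72, -3.40 and -3.98. The AI group reached both above and below the young one. The SD was 0.10 in young, 0.28 in AU and 0.61 in AI rats. The difference between aged and young was -0.21 (95% confidence interval -0.70 to 0.28, limma adjusted p = 1, exact permutation p = 0.39).

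*Mki67* encodes the Ki-67 protein, present in all phases of the active cell cycle. Its levels were -0.01, -0.61, 0.22 and 0.31 in young rats, -0.52, -0.68, 0.18 and 0.36 in AU rats and 0.10, -0.21, 0.13 and 0.36 in AI rats. The ranges overlapped, and the AI rats spanned the narrowest one. The difference of -0.01 had a 95% confidence interval from -0.51 to 0.49, and its sign turned under several alternatives. Of its other probes, 2 gave -0.03 and -0.09, and the remaining one did not pass the filter, being above background on 14 of 36 arrays.

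The transcription factors of the lineage had narrow differences. *Sox11*, which acts in newborn neurons, had means of -1.07 ± 0.23 in young, -1.21 ± 0.24 in AU and -1.28 ± 0.13 in AI rats (SD, n = 4 each), with 2 of 8 aged rats below the lowest young rat. *Sox4*, its close relative, had 2.66 ± 0.33, 2.42 ± 0.34 and 2.58 ± 0.23. The 2 dimmer *Sox4* probes gave differences between aged and young of -0.22 and -0.05, against -0.16 for the brightest. *Neurod1*, needed for the survival and maturation of new granule neurons and also expressed by mature ones, had 2.81 ± 0.34, 2.86 ± 0.38 and 2.68 ± 0.25. The 95% confidence intervals of these 3 differences lay between -0.55 and 0.38.

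*Igfbpl1*, a secreted protein known as a marker of neuroblasts, varied most between rats among the members other than *Dcx*. It ran from -1.81 to -1.10 in young rats, from -2.34 to -1.12 in AU rats and from -2.91 to -0.82 in AI rats. The aged range took in the whole young range. The difference between aged and young was -0.34 (95% confidence interval -1.09 to 0.42, limma adjusted p = 1, exact permutation p = 0.386).

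AI and young rats differed by -0.66 for *Dcx* (limma adjusted p = 1, exact permutation p = 0.114) and by 0.11 for *Mki67*, with 7 of 8 differences below 0, as were 56.3% over all probes. Of 32562 probes 1 was called there (0.00307%), and it belonged to no member. AI and AU rats differed most for *Cdk1*, by 0.42 (95% confidence interval -0.18 to 1.02, limma adjusted p = 1, exact permutation p = 0.286). By limma no member was called in either comparison, where 0.00307% and 0% of probes were, and none had an unadjusted p below 0.05, where 4.6% and 4.49% of probes did. The interval of *Mki67* between AI and young rats, -0.46 to 0.69, leaves room for a difference in either direction.

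**Figure D2:**
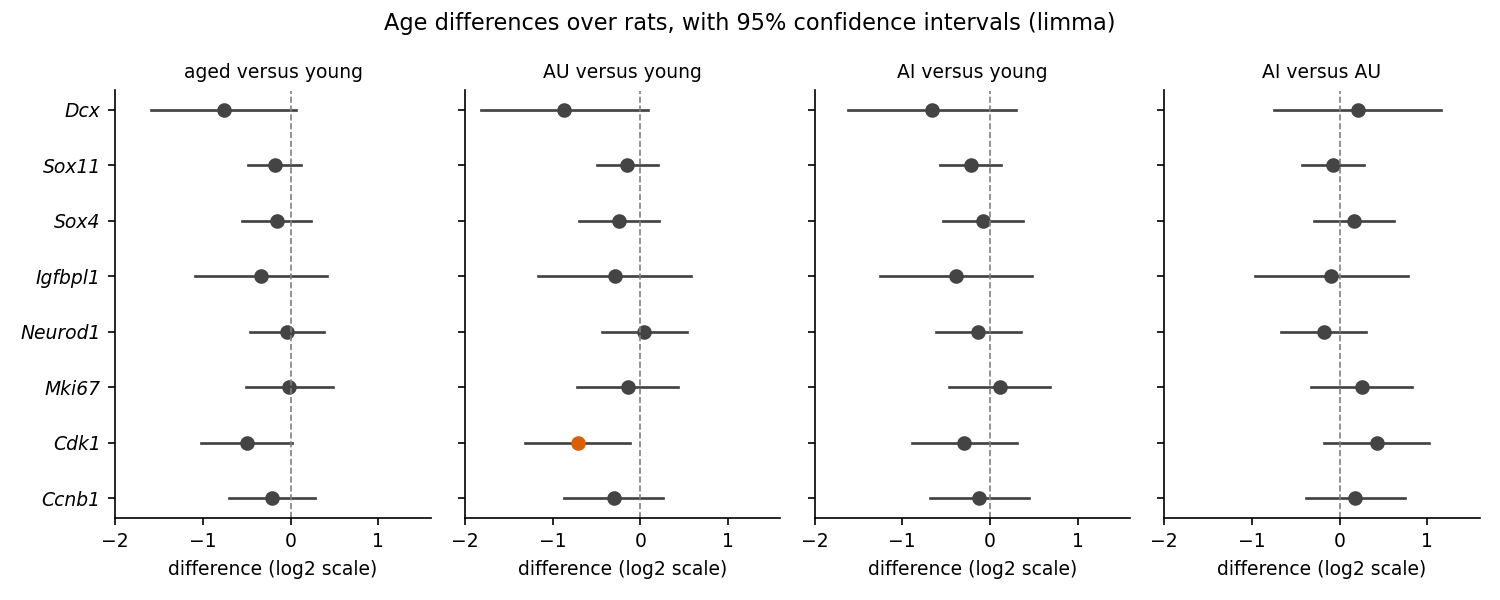
Difference between age groups for each member (log2 scale, horizontal axis) with its 95% confidence interval, from limma on 12 rat means, in 4 comparisons. The interval of Cdk1 between AU and young (orange), -1.32 to -0.11, is the only one of the 32 that leaves out 0, and its adjusted p is 1.

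Stimulation was compared with sham within each age group and over all rats. No member was called by limma at an adjusted p of 0.05 in any of the 8 comparisons, where 0% of the 32562 probes were called in each. With the rat as a random block 4 probes were called for iTBS over all rats, and no member. *Dcx* in AU rats under iTBS was the only member with an unadjusted p below 0.05, where 2.35% of probes had one. The other 7 comparisons had none of the 8 members below 0.05. The share of probes below it was 0.927% and 2.21% in young rats (1 Hz and iTBS), 1.71% in AU rats under 1 Hz, 0.7% and 0.712% in AI rats, and 0.593% and 0.654% over all rats. The criteria of the study's methods combine a z-ratio beyond 1.5 with tests of replicability, a false discovery rate of 0.3 and a mean z-score above 0. As applied here they called 0 members in the 6 comparisons within an age group, and 0% to 0.0465% of 45115 probes. The paper counts far more changed genes in each of these comparisons, so its counts were not reproduced. The criterion of a mean z-score above 0 could be met by 2 to 4 of the 8 members. *Sox11*, *Igfbpl1*, *Cdk1* and *Ccnb1* lay below 0 in all 6 comparisons, so these counts say little about the members.

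*Dcx* levels in AU rats 1 to 4 were 0.41, 1.22, 1.13 and 0.14 under sham, 1.31, 0.84, 0.61 and 1.35 under 1 Hz, and 0.20, 1.41, -5.23 and 0.01 under iTBS. The value of rat 3 under iTBS stands apart, and no other AU array was below 0. The difference between iTBS and sham was -1.63 (95% confidence interval -3.17 to -0.09, limma adjusted p = 1), and without that array it was -0.19 (limma adjusted p = 1). The spot of that array had a signal of 3.88, against 214 on the 1 Hz array of the same rat, and was not well above background. *Dcx* has 1 spot per array, which was not flagged as an outlier there. Low levels on that array were not limited to *Dcx*. The mean level of 7 oligodendrocyte progenitor markers was 2.46 there, against 3.16 to 3.74 on young arrays and 3.20 to 3.56 on AI arrays. The cause of the low *Dcx* value was not tested. The difference in response between AU and young rats was -2.24 (limma adjusted p = 1) and rests on the same array. It was the only 1 of 48 such interaction tests with an unadjusted p below 0.05.

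In young rats *Dcx* lay at 1.04, 0.09, 1.69 and 1.03 under sham, at 0.91, 0.59, 1.08 and 1.07 under 1 Hz, and at 1.41, 1.66, 1.43 and 1.81 under iTBS. iTBS was above sham in 3 of 4 rats, by 0.62 on average (95% confidence interval -0.92 to 2.15, limma adjusted p = 1). Rat 2 had the largest difference, 1.57, and the lowest sham level of the group. That sham array of young rat 2 had the highest inflammatory myeloid level of the young arrays, 2.29, and their highest microglial level, 5.11. It also had the lowest meningeal level of the young arrays, -1.03. Between iTBS and sham in young rats 8 of 8 meningeal markers were higher, with a median of 0.97 and 4 of them with an unadjusted p below 0.05. Of 7 inflammatory myeloid markers 6 were lower, with a median of -0.97, and of 4 mature granule neuron markers 3 were lower, with a median of -0.51. Of 7 oligodendrocyte progenitor markers 0 were lower, with a median of 0.21. Of 4 ependymal markers 1 was lower, with a median of 0.93. Over all genes 56.4% were lower, and 2.31% had an unadjusted limma p below 0.05. The array with the highest *Dcx* level in young rats, iTBS of rat 4, also had their highest meningeal level, 2.35. The part of these in the *Dcx* levels was not tested.

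In AI rats *Dcx* lay at 0.46, 0.97, 0.60 and -0.73 under sham, at -0.03, 1.35, 1.30 and 0.27 under 1 Hz and at 0.09, 1.57, 0.07 and -0.02 under iTBS. 1 Hz was above sham in 3 of 4 rats and iTBS in 2 of 4. Over all 12 rats the differences were 0.22 for 1 Hz (95% confidence interval -0.67 to 1.10) and -0.30 for iTBS (-1.19 to 0.59).

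**Figure D3:**
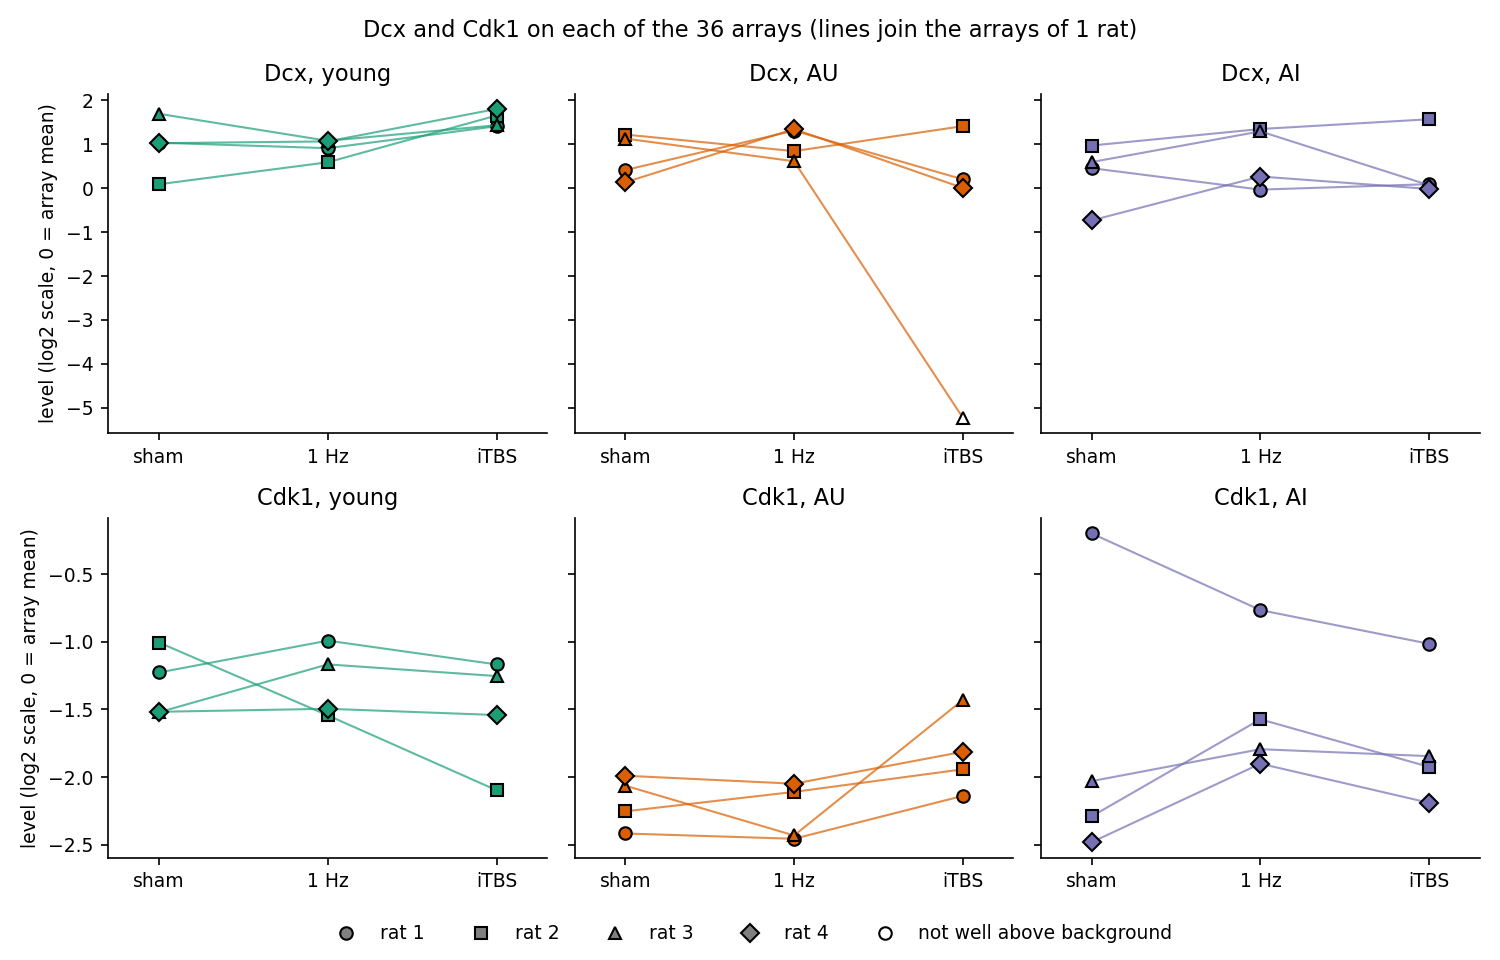
Level of Dcx (top) and Cdk1 (bottom) on each of the 36 arrays (log2 scale, 0 is the array mean) by age group and treatment, with lines joining the arrays of 1 rat and an open symbol where the probe was not well above background. The Dcx value of -5.23 is the iTBS array of AU rat 3, and the high Cdk1 line in AI is rat 1.

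*Cdk1* in AU rats was higher under iTBS than under sham in 4 of 4 rats, by 0.28, 0.31, 0.63 and 0.18. The levels themselves were -2.42, -2.25, -2.06 and -1.99 under sham and -2.14, -1.94, -1.43 and -1.81 under iTBS. The mean difference of 0.35 did not pass the test (95% confidence interval -0.33 to 1.03, limma adjusted p = 1). That fit held no term for the rat, so its interval does not use the pairing of the dishes. The differences of *Cdk1* between iTBS and sham were 0.06, -1.09, 0.27 and -0.02 in young rats, and in AI rats -0.82, 0.37, 0.18 and 0.29. *Mki67* was lower under 1 Hz than under sham in 4 of 4 AU rats, by a mean of -0.19 (limma adjusted p = 1). In no other comparison within an age group did a member have all 4 rats on 1 side of sham. The share of all probes that did so is not given here. Of all genes in AU rats, 38.7% had a mean difference below 0 under iTBS and 54.1% under 1 Hz. Over the 12 rats every member differed from sham by between -0.17 and 0.22 under 1 Hz and between -0.30 and 0.09 under iTBS.

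The members can be read against the other genes of the lineage and the cell cycle. Of 22 immature neuron genes 21 were tested, and 20 of them had a lower mean in aged than in young rats, with a median difference of -0.20. Over the 13186 genes tested the median was -0.04, and 62.1% were below 0. None of the 21 passed the test, and none had an unadjusted p below 0.05. *Dcx* had the lowest difference and the smallest p. *Nnat* differed by -0.54, *Dpysl5* by -0.51, *Tubb3* by -0.50 and *Elavl4* by -0.37, genes chosen here after their values were seen. *Dlx2*, a factor of interneuron development, was the exception at 0.23. The list holds 5 of the members and is not independent of them. Its name does not make its genes specific to immature neurons, and whether their signal came from immature or mature neurons was not tested. On sham arrays alone 18 of the 21 were below 0, and without young rat 4 16 of 21.

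The mean level of the 21 genes was 2.43, 2.31, 2.45 and 2.39 in young rats, 2.32, 2.36, 2.09 and 2.12 in AU rats and 2.04, 2.39, 2.21 and 1.73 in AI rats. The young rats lay close together, and AI rat 4 had the lowest level. In AI rats 19 of 21 genes were below the young mean (60.2% of all genes), and 2 of 21 had an unadjusted p below 0.05 (6.2% of all genes). In AU rats 16 of 21 were below it (58.2% of all genes). Of the markers of mature granule neurons 2 of 4 tested were below 0, with a median of -0.01, and 7 of 8 pyramidal neuron markers were below 0 with a median of -0.19.

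Stem and progenitor genes were divided. Of 20 listed 18 were tested, 10 were lower in aged rats, and the median was -0.02. *Gfap* at 0.64 (limma adjusted p = 1) and *Vim* at 0.31 had the highest differences, and both are also expressed by mature astrocytes. *Nes*, the intermediate filament of neural stem cells, was at -0.32. Of 20 S phase genes 18 were tested, with 8 lower in aged rats and a median of 0.01. Of 25 G2/M genes 19 were tested, with 14 lower and a median of -0.07. *Aurka*, a mitotic kinase, was higher in aged rats by 0.61 (limma adjusted p = 1) and was the only gene of these lists with an unadjusted p below 0.05, where 1.87% of genes had one.

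**Figure D4:**
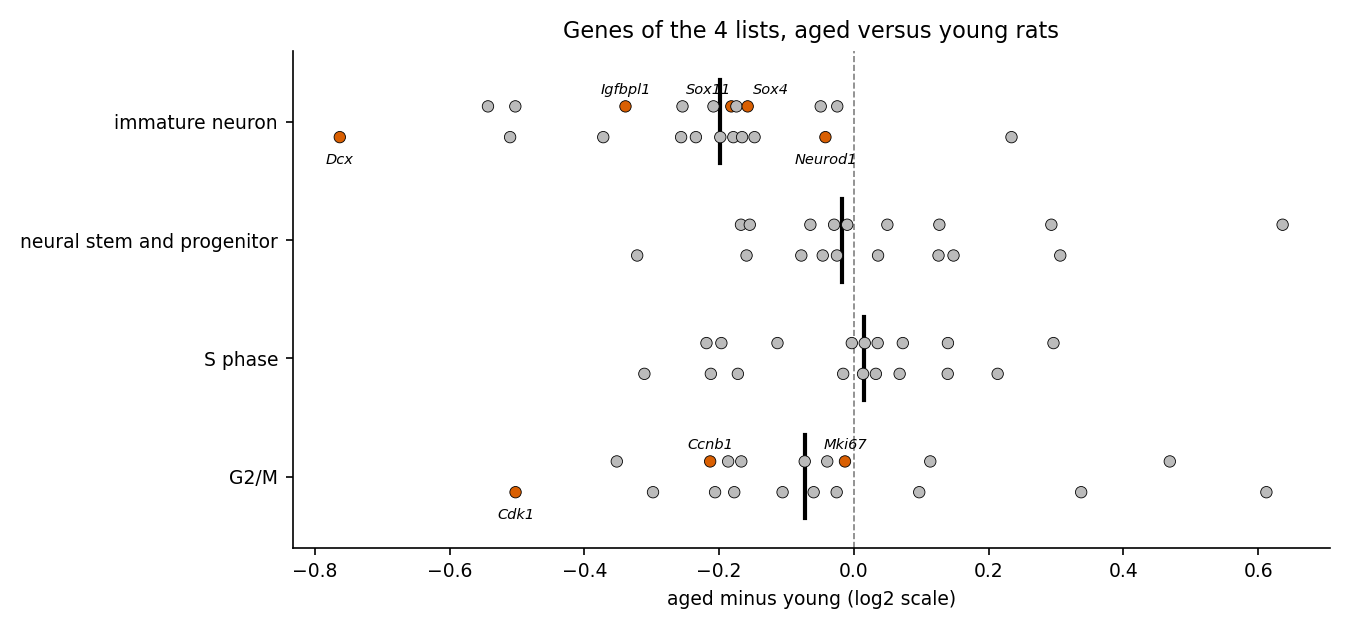
Difference between aged and young rats (log2 scale, horizontal axis) for each tested gene of the immature neuron, neural stem and progenitor, S phase and G2/M lists, 21, 18, 18 and 19 genes, with members in orange and the list median as a black bar. Points are set in 2 rows per list only to separate them. In the immature neuron list 20 of 21 points lie left of 0.

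The cell cycle lists had medians of opposite sign in the comparisons of AU with young and of AI with AU rats, which share the AU rats. In AU against young rats 16 of 19 G2/M genes were below 0, with a median of -0.11, against 58.2% of all genes. In AI against AU rats 5 of 19 G2/M genes and 2 of 18 S phase genes were below 0, with medians of 0.23 and 0.23, against 54% of all genes. None of these genes was called. Scaled to the 75th percentile, 11 of 19 G2/M genes and 8 of 18 S phase genes were below 0 in AI against AU rats, with medians of -0.05 and 0.01, while the median of all genes was -0.13, against -0.02 as z-scores, with 74.9% below 0. Unadjusted, 3 of 19 G2/M genes and 2 of 18 S phase genes had a p below 0.05 between AI and AU, all higher in AI, where 5.89% of genes had one. *Ttk*, a kinase of the spindle checkpoint, had the smallest p of the G2/M list, with a difference of 1.11 (limma adjusted p = 1, and 0.0329 in limma with the slide as a fixed and the rat as a random block). *Mcm3*, a subunit of the replicative helicase, had the smallest of the S phase list. The mean G2/M level was -1.34, -1.43, -1.40 and -1.31 in AU rats and -0.78, -1.16, -1.22 and -1.34 in AI rats, so that AI rat 1 stood highest and AI rat 4 lay within the AU range. Without AI rat 1 the G2/M median between AI and AU was 0.14, with 6 of 19 below 0. In the same comparison 6 of 7 inflammatory myeloid markers were higher in AI rats, with a median of 1.13, and 7 of 8 microglial markers, with a median of 0.43. Their part in the cell cycle lists was not tested. The S phase level was 0.39, 0.32, 0.55 and 0.64 in AU rats and 0.77, 0.69, 0.72 and 0.59 in AI rats.

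Markers of other cell types also differed in median between aged and young rats. Over all genes 62.1% were lower in aged rats, and 1.87% had an unadjusted limma p below 0.05. All 8 meningeal markers were lower in aged rats, with a median of -0.81, 5 of them with an unadjusted p below 0.05 and none called. Their mean level was 0.52, -0.39, 0.54 and 0.93 in young rats, -0.34, -0.43, 0.07 and -0.35 in AU rats and -0.96, 0.07, -0.05 and -0.65 in AI rats. All 7 tested inflammatory myeloid markers were higher in aged rats, with a median of 0.98, which was 0.19 on sham arrays alone and 0.49 without AI rat 1. Of 7 oligodendrocyte progenitor markers, another population that divides, 6 were below 0 with a median of -0.10. Of 10 T and NK cell markers 6 passed the filter, and their median difference was 0.03. Of 6 tested choroid plexus markers 0 were below 0, with a median of 0.16, and of 6 endothelial markers 4 were, with a median of -0.18. The part of these in the levels of the members was not tested.

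Levels also followed the number of the rat, which is tied to the slide. Slides 1 and 2 held the arrays of rats numbered 1 and 2, apart from the stimulated arrays of AI rat 2 on slide 3, and slides 3 to 5 held those of rats 3 and 4. *Sox4*, *Neurod1* and *Mki67* were higher in rats 3 and 4 than in rats 1 and 2 in all 3 age groups. *Neurod1*, for example, was 2.53, 2.56, 2.91 and 3.24 in young rats, 2.59, 2.49, 3.11 and 3.25 in AU rats and 2.36, 2.60, 2.86 and 2.89 in AI rats. *Sox11* and *Igfbpl1* were lower in rats 3 and 4 in all 3 age groups. These 5 directions held under the other scalings tried, the 75th percentile and normexp with quantile normalization, although *Mki67* in young rats differed by 0.00882 under the former, against 0.57 as z-scores.

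**Figure D5:**
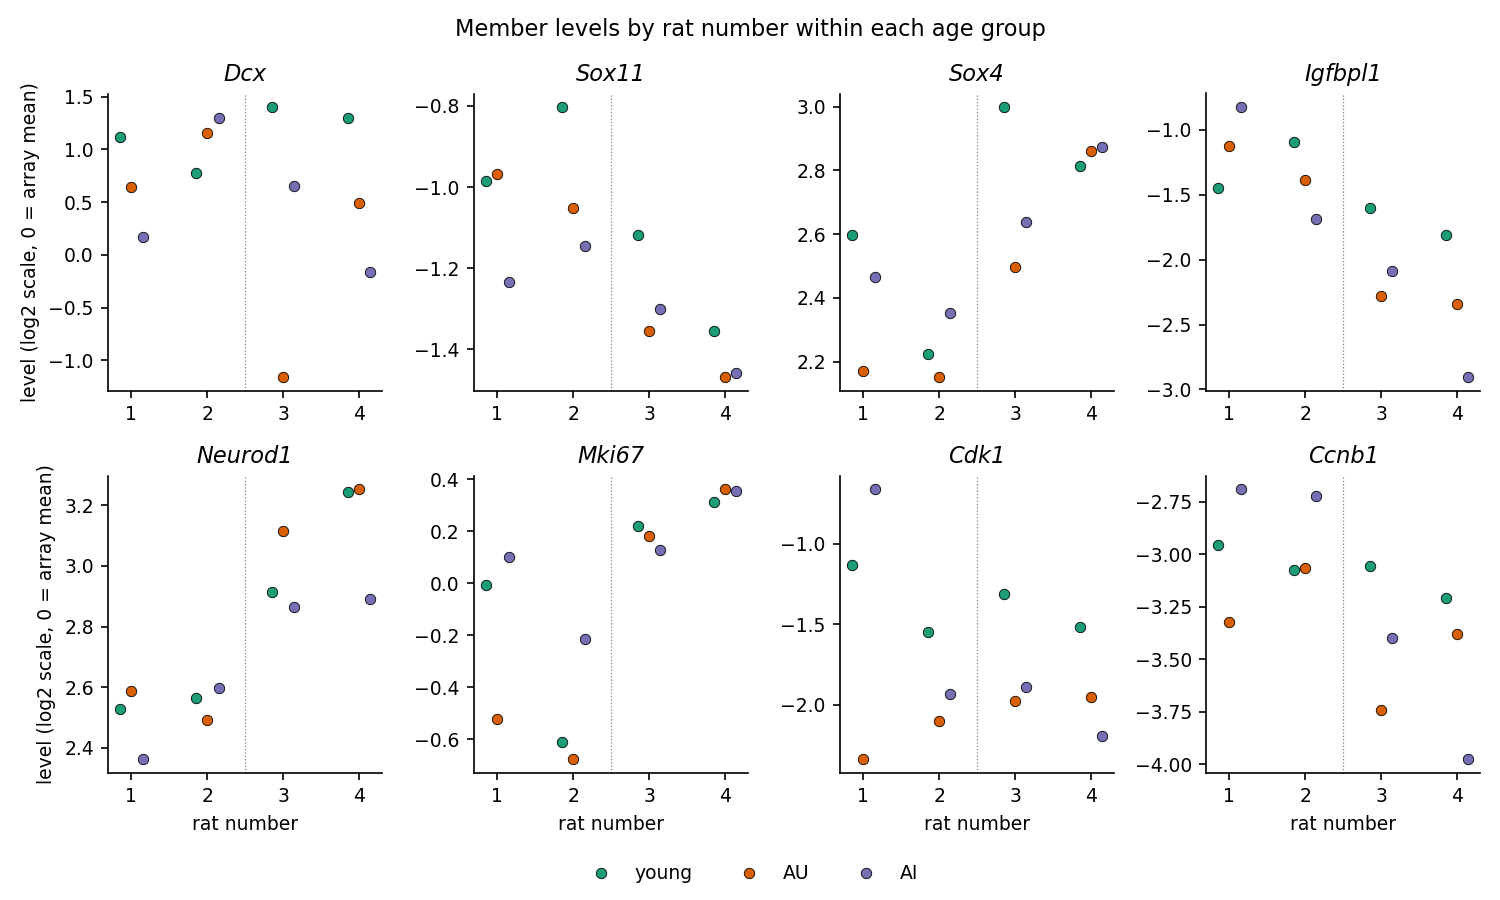
Level of each member by the number of the rat within its age group (log2 scale, 0 is the array mean, mean of 3 treatments), with young, AU and AI rats in different colours and a dotted line between rats 1 and 2 and rats 3 and 4. Neurod1, Sox4 and Mki67 are higher to the right of the line and Sox11 and Igfbpl1 lower, at every age.

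Scaling each array to its 75th percentile changed the size of this pattern. The slide means of *Mki67*, -0.13 and -0.58 on slides 1 and 2 against 0.14, 0.25 and 0.36 on slides 3 to 5 as z-scores, became -3.87 and -4.00 against -4.00, -3.86 and -3.73. Those of *Neurod1* kept their order, with -1.35 and -1.19 against -1.08, -0.87 and -0.95. The differences of *Igfbpl1* became wider, -4.82 and -4.62 against -6.19, -6.17 and -7.22. The share of features above background and the SD of an array, 3.42 to 4.63, moved with the slides as well, and their part in these levels was not tested. Slides 1 to 4 each held young and aged arrays, and slide 5 aged arrays alone. These 4 slides each held 5 aged and 3 young arrays, the 3 young ones being dishes of 1 rat and not separate animals. Within them *Cdk1* was lower on aged than on young arrays on 4 of 4, with differences of -0.57 to -0.37. The share of all probes lower on 4 of 4 slides is not given here. *Sox11*, *Sox4* and *Neurod1* were also lower on 4 of 4 slides, with a difference of *Neurod1* as small as -0.000466 on 1 of them. *Dcx* was lower on 3 of 4, with -0.65, 0.13, -1.52 and -0.61 on slides 1 to 4. *Igfbpl1* was lower on 3 of 4, and with the slide as a block and the rat as a random block its difference was -0.10, against -0.34 without them.

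The spread between rats was compared with that between the 3 dishes of 1 rat. For *Sox4* the SD between rats of an age was 1.93 times the SD within a rat, for *Mki67* 1.52 times, for *Cdk1* 1.41 times and for *Igfbpl1* 1.37 times. The median over the 32562 probes was 1.05. The SD between rats is that of means of 3 dishes, so a ratio of 0.58 is what equal rats on equal slides would give. Rats of an age lay mostly on different slides, and the dishes of a rat mostly shared a slide. The ratios therefore cannot tell rat from slide. *Dcx* at 0.62 and *Sox11* at 0.57 were close to 0.58, and without the iTBS array of AU rat 3 the ratio of *Dcx* was 0.88. With the repeat hybridizations of AU sham rat 4 and AI iTBS rat 1, the members differed from their first array by -0.33 to 0.41, so part of the spread between dishes is of the size of a repeated array.

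The genes whose pattern over the 12 rats was most like that of *Dcx* were *Fbxo9*, *Tenm3* and *Tgfb3*, with Pearson r of 0.951, 0.944 and 0.942 among 13185 genes. These values rest on the iTBS array of AU rat 3, on which *Dcx* was not well above background. Without it they were 0.299, 0.336 and 0.359. Most like *Mki67* were *Pwwp2a*, *Sertad2* and *Acap2*, with 0.978, 0.967 and 0.966. These are descriptions over 12 rats that share slides in sets by number, and the highest of many correlations are high by selection. Among the members, *Ccnb1* was the most like *Dcx* (r of 0.647, and 0.46 without that array).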

How the data were processed

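RNA of hippocampal slices was hybridized to one-colour (Cy3) Agilent rat arrays of 62976 features on 5 slides. The 36 primary arrays were used, and 4 repeat hybridizations only where named. Per the file headers the authors extracted each feature with Feature Extraction 12.0.3.1 as an intensity after background subtraction and detrending, and no step set the arrays to a common scale. A table of z-scores, in which each array's log intensities are centred and divided by their SD, was deposited too. The score recomputed here from the authors' intensities on the log2 scale differed from it by at most 0.005 and was multiplied by 4.16. Spots of a probe were averaged, and a gene was read from its brightest probe. Symbols came from the RefSeq table of the GRCr8 assembly, which named 21109 of 45598 probes, and promoters from its sequence table, with an entry for 9 of the 10 genes.

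A probe was tested where 1 or more of the 9 groups had it well above background throughout, on 4 of 4 arrays (32562 probes). Ages were compared with limma 3.58.1 on the means of the 3 treatments of each of the 12 rats, and treatments on the 36 arrays with 9 group means, with Benjamini-Hochberg adjustment over all tested probes. The treatment fit held no term for the rat, so its intervals do not use the pairing of the dishes of a rat. Members were also compared by exact permutation tests over rats. Members, gene lists and marker lists were chosen with earlier results of these data known. Genes named were the members, any list gene past the test (none was) and the 3 genes most like *Dcx* and *Mki67*, the latter in place of *Top2a*, which had no probe. List genes named for their values, exact tests without an array or on sham arrays, within-slide values and the lists under each alternative were added after the values were seen.

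Within an age group a number is the same rat by the labels. Of the correlations between arrays of a rat, as deviations from the group means, 35 of 36 were over 0.1 (median 0.398). Rat means of the same number but different ages had a median of 0.389. Arrays of a rat mostly shared a slide, so these correlations cannot tell rat from slide. The within-rat correlation over all probes was 0.44, and 0.155 with the slide in the model. Tested on simulated data of 32136 probes for aged against young rats, limma recovered 66%, 92%, 98% and 100% of changes of 1, 2, 3 and 4 on the log2 scale, with 9 false calls. For iTBS against sham in young rats it recovered 32%, 88%, 96% and 98%, also with 9 false calls. The simulated noise was independent between arrays, with no shared effect of slide or of rat, and 50 probes were changed at each size together. These shares are therefore not the chance of calling a single member on the real arrays. Alternatives were scaling to the 75th percentile, normexp (offset 50, on the median signal, the mean signal not being used here) with quantile normalization, the authors' z-scores, other filters, the mean of a gene's probes, blocks for rat and slide, averaged repeats, sham arrays alone and each rat left out. The number of arrays limits the precision.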

Additional observations from a re-analysis of the deposited data

Results flagged for a closer look

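Each of the 8 members was checked in each of its groups of 4 arrays and of 4 rat means for a sample set far apart from the other 3, 96 groups in all, and 3 stood apart, where chance sets apart about 1 in 20 groups. *Dcx* was at 1.57 on the iTBS array of AI rat 2, against -0.02 to 0.09 in the other 3 AI rats under iTBS. *Igfbpl1* was at -1.33 on the sham array of young rat 3, against -1.75 to -1.71 in the other young sham arrays. *Neurod1* was at 2.12 on the sham array of AU rat 2, against 3.03 to 3.21 in the other AU sham arrays. The *Dcx* level of -5.23 on the iTBS array of AU rat 3 was not among the 3, nor was the mean of that rat. The check sets the gap to the next value against the range of the group.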

How the results depend on the processing

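The count of members called stayed at 0 under all 298 settings run over the 12 comparisons. The smallest adjusted p of any member was 0.213, in AI against AU rats. Of the 10 member differences recomputed, 235 of 246 values kept their direction and their side of the threshold. *Mki67* between aged and young rats, -0.01, turned to 0.00168 with normexp and quantile normalization and to 0.039 without the young sham array of rat 2, and ran from -0.21 to 0.10 with a rat left out. *Neurod1*, -0.04, ran from -0.14 to 0.10 with a rat left out. The cause was not tested. *Dcx* between aged and young rats ran from -0.91 to -0.44 and *Cdk1* from -0.67 to -0.25, the latter with normexp and quantile normalization. *Cdk1* in AU against young rats ran from -0.86 on sham arrays alone to -0.36 with normexp and quantile normalization. Over all probes the slide as a block moved the calls most, to 14 in aged against young, 29 in AI against young and 19 in AI against AU rats, from 0, 1 and 0. *Dcx* in AU rats under iTBS ran from -2.23 to -0.05, the latter without AU rat 3.

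With the rat as a replicate block, *Dcx* in AU rats under iTBS differed by -1.63 (limma adjusted p = 0.999 with a fixed and 0.788 with a random block), and in age comparisons the replicate block on the number left *Cdk1* in AU against young rats at -0.71 (limma adjusted p = 1). Across ages a number is not the same rat, although 11 of 12 correlations between same-numbered rats of different ages were over 0.1. The block changed no call of a member. Over all probes a random block for the rat moved the calls from 0 to 4 for iTBS over all rats, to 2 in AI against AU rats and to 1 in aged against young rats. Signal over background limits *Ccnb1* most, which was clear of it on 31 of 36 arrays.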

Other observations

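The labels of 2 repeat arrays left the rat or the treatment unsettled, and they entered no comparison. On the young sham repeat whose rat is unsettled *Dcx* was at 0.79, *Cdk1* at -1.47 and *Mki67* at 0.06. On the repeat whose treatment is unsettled *Dcx* was at 1.18, *Cdk1* at -1.58 and *Mki67* at 0.17.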
